A study of Mus musculus with 6 samples.

Results

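Inward rectifier potassium channels (Kir channels) and the subunits of the ATP-sensitive potassium channel (K-ATP channel) were examined in neurons of the preBötzinger Complex (preBötC), the brainstem site that generates the inspiratory rhythm. The 9 genes were taken by name from the 49568 gene names measured. They comprised 7 pore genes (Kcnj2, Kcnj4, Kcnj8, Kcnj10, Kcnj11, Kcnj12 and Kcnj16) and 2 sulfonylurea receptor genes (Abcc8 and Abcc9). The transcriptome was measured in 6 pools, each of 15 neurons drawn by pipette from slices of postnatal day 2 mice of both sexes. All mice carried Dbx1CreERT2, a tamoxifen-inducible Cre driven from the Dbx1 gene, and the Rosa26tdTomato reporter, and the pregnant dams had received tamoxifen. The 3 Dbx1 samples held fluorescent neurons, and the 3 non-Dbx1 samples held neighbouring neurons without fluorescence, with each sample from a different mouse. Non-Dbx1 therefore stands for the absence of reporter signal in mice of the same genotype and treatment, and a neuron in which the reporter had not recombined would fall in that group.

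Kir channels pass potassium more readily into the cell than out of it and hold the resting membrane potential near the potassium equilibrium. Kir2 pores rectify strongly. Kir6 pores join with a sulfonylurea receptor to form K-ATP channels, which close when cytoplasmic ATP is high and open as ATP falls, so that membrane excitability follows the metabolic state of the cell. Kir4.1 and Kir5.1 are best known from glia, where they take part in potassium clearance, and channels that contain Kir5.1 are inhibited by intracellular acidification, a property studied in brainstem chemosensitivity.

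All 7 pore genes encode the potassium selectivity filter, the short stretch that lines the narrowest part of the pore, and it is shown for 5 of them because it separates the Kir6 genes from the other pores shown. The lines below run 5′ to 3′ on the coding strand, with the filter in capitals and 15 coding bases on each side in lower case. They were read from GENCODE vM21 transcripts of GRCm38.
Kcnj2 (Kir2.1): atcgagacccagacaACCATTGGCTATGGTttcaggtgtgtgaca
Kcnj4 (Kir2.3): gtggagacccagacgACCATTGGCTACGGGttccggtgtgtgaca
Kcnj8 (Kir6.1): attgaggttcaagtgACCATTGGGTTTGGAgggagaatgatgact
Kcnj11 (Kir6.2): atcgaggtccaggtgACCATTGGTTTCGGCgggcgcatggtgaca
Kcnj16 (Kir5.1): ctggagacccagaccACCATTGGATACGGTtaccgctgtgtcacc
The stretches lie at chr11:111072192-111072236 (Kcnj2, + strand), chr15:79485352-79485396 (Kcnj4, - strand), chr6:142566433-142566477 (Kcnj8, - strand), chr7:46099481-46099525 (Kcnj11, - strand) and chr11:111024889-111024933 (Kcnj16, + strand). The capitals were found by a search in frame on the coding strand for a threonine codon, a codon with T as its middle base, a glycine codon, a codon that begins with T and another glycine codon in a row, which matched once in each of the 5 genes and in 205 of 22500 genes with a coding sequence (0.911%). The fourth codon of the filter read TTT or TTC, for phenylalanine, in the 2 Kir6 genes, and TAT or TAC, for tyrosine, in the other 3. Of the 45 bases shown, Kcnj8 shared 35 with Kcnj11, whereas Kcnj2, Kcnj4 and Kcnj16 shared 27 to 29. Over whole coding sequences the longest identical run was 23 bases between Abcc8 and Abcc9 and 21 between Kcnj8 and Kcnj11. Neither pair therefore shared a run of 35 bases.

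The reads on genes numbered 6464675 in the shallowest sample and 9432958 in the deepest, and expression is given as RPKM, the reads on a gene per kilobase of exon, scaled to the reads on all genes of the sample. Non-Dbx1 replicate 1 stood apart from the other samples in its oligodendrocyte lineage and red blood cell markers. Its sums of endothelial, microglia, and pericyte and smooth muscle markers were not the highest. The summed level of 7 oligodendrocyte lineage markers was 294 RPKM in that sample and 17.5 to 72.7 RPKM in the other samples, and the sum of 4 red blood cell genes was 13946 RPKM there, 1198 and 732 RPKM in the other non-Dbx1 samples and 89.6 to 505 RPKM in the Dbx1 samples. The sum of 6 neuronal markers was 994 to 1708 RPKM in the Dbx1 group and 993 to 1380 RPKM in the non-Dbx1 group. The sum of 6 microglia markers was 0.202 to 2.97 RPKM in the Dbx1 group and 0.530 to 1.52 RPKM in the non-Dbx1 group. Of these markers, only Tmem119 and Itgam were at 0 in every sample. The difference between the groups is therefore given with and without non-Dbx1 replicate 1 for each member tested. In pools of neurons, fewer cells of a type and less RNA per cell cannot be told apart.

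The 9 genes differed in the number of samples with reads. Abcc8 and Kcnj10 were non-zero in all 6 samples, and Kcnj11, Kcnj16 and Kcnj12 in 5 of 6. The lowest sample had 1 read of Kcnj10 and 0 reads of Kcnj11, Kcnj16 and Kcnj12. Kcnj2 was non-zero in 2 samples, Kcnj4 and Abcc9 in 1 sample each, and Kcnj8 in none. The neuronal-type K-ATP pair, Kcnj11 and Abcc8, was thus detected in these pools, whereas its vascular-type counterpart, Kcnj8 and Abcc9, was at 0 in all but 1 value. Ranked by mean RPKM over the 6 samples, Abcc8 stood above 67.7% of the 27067 genes with any reads, Kcnj10 above 65.4%, Kcnj11 above 60.7%, Kcnj16 above 57.2% and Kcnj12 above 46.5%.

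**Figure D1:**
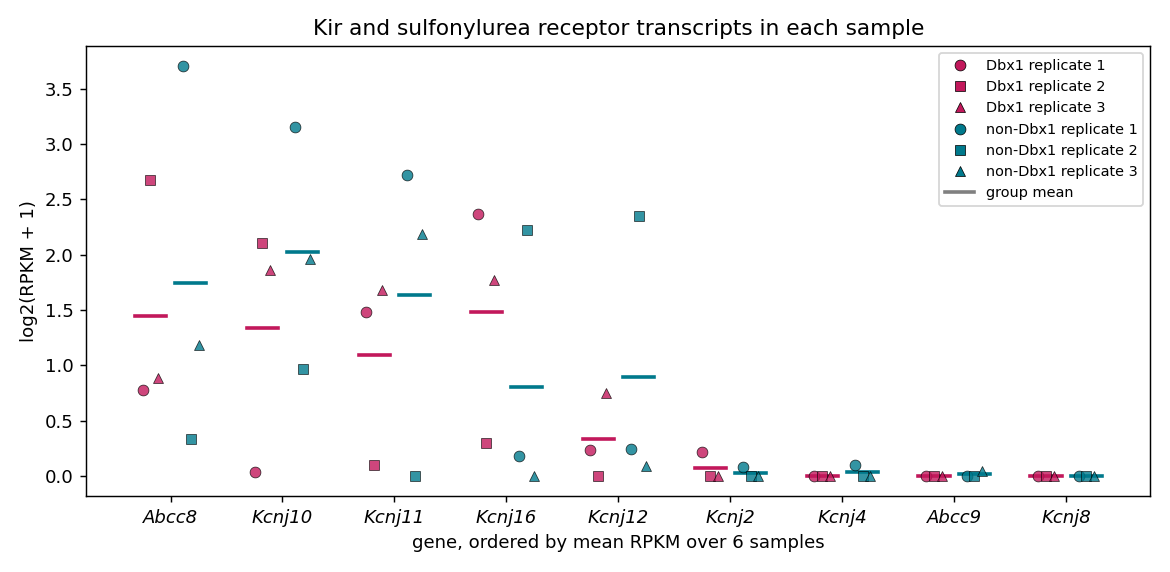
Level of each of the 9 genes, as log2(RPKM + 1), in the 3 Dbx1 (red) and 3 non-Dbx1 (blue-green) samples, 1 point for each sample, with horizontal bars at the group means of log2(RPKM + 1). Abcc8, Kcnj10, Kcnj11, Kcnj16 and Kcnj12 spread widely within both groups, and Kcnj2, Kcnj4, Abcc9 and Kcnj8 lie on or near 0.

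Kcnj12 encodes Kir2.2, a strong inward rectifier (chr11:61022564-61071131, + strand). Its level was 0.175, 0 and 0.685 RPKM in Dbx1 replicates 1, 2 and 3, and 0.184, 4.09 and 0.0632 RPKM in non-Dbx1 replicates 1, 2 and 3. These came from an estimated 7, 0 and 24 reads in the Dbx1 group and 6, 176 and 3 reads in the non-Dbx1 group. Non-Dbx1 replicate 2 was the high sample and held 78.7% of the summed level, and the groups overlapped. The difference between the groups in mean log2(RPKM + 1), Dbx1 minus non-Dbx1 (L2FC), was −0.56 (limma, SE 0.591, 95% interval −1.91 to 0.79, FDR 0.953). Leaving out non-Dbx1 replicate 1 gave −0.89, and leaving out non-Dbx1 replicate 2 gave 0.16. The same non-Dbx1 replicate 2 had the highest sum of 6 endothelial markers, 72.2 RPKM, of which Cldn5, a tight junction gene of brain endothelium, made up 63.7 RPKM. In the other samples that sum ranged from 0.168 to 1.03 RPKM in the Dbx1 group and was 3.95 and 0.0427 RPKM in the non-Dbx1 group, and its part in the level of Kcnj12 was not tested.

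Kcnj2 encodes Kir2.1, the founding member of the Kir2 family (chr11:111066164-111076821, + strand). It had 0.162 RPKM in Dbx1 replicate 1, from 7 reads, 0.0568 RPKM in non-Dbx1 replicate 1, from 2 reads, and 0 in the other 4 samples. Kcnj4, which encodes Kir2.3 (chr15:79483714-79505241, - strand), had 1 read in non-Dbx1 replicate 1, or 0.0720 RPKM, and 0 elsewhere. At this depth 3 reads, the limit that a count of 0 allows, correspond to 0.0584 to 0.0852 RPKM for Kcnj2 and 0.148 to 0.216 RPKM for Kcnj4. Both genes were too sparse for the test, which required a non-zero value in at least 3 samples, and a level under these limits can give 0 reads in a sample. These limits cover counting error only, because the libraries were amplified and a read is not a separate molecule.

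Kcnj11 encodes Kir6.2, the pore of the K-ATP channel of pancreatic beta cells and of many neurons (chr7:46093953-46100764, - strand). Its level was 1.80, 0.0730 and 2.21 RPKM in Dbx1 replicates 1, 2 and 3, and 5.58, 0 and 3.55 RPKM in non-Dbx1 replicates 1, 2 and 3. Each group had 2 samples of 78 to 197 reads, while Dbx1 replicate 2 held 3 reads and non-Dbx1 replicate 2 held none, so the groups overlapped. The L2FC was −0.55 (limma, SE 0.824, 95% interval −2.43 to 1.34, FDR 0.965), and it was −0.0040 without non-Dbx1 replicate 1. Kcnj8 encodes Kir6.1, a K-ATP pore prominent in vascular smooth muscle and pericytes (chr6:142564837-142571614, - strand). It was at 0 in all 6 samples, where 3 reads would have given 0.0728 to 0.106 RPKM. The summed level of 8 pericyte and smooth muscle markers was 2.11 to 4.15 RPKM in the Dbx1 group and 2.13 to 4.86 RPKM in the non-Dbx1 group. Its bearing on the level of Kcnj8 was not tested. Kcnj11 exceeded Kcnj8 in 5 of 6 samples and equalled it at 0 in the sixth, with a mean difference in log2(RPKM + 1) of 1.36. Since Kcnj8 was at 0 throughout, the difference could not be negative, and it is given with no test.

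Abcc8 encodes SUR1, the sulfonylurea receptor that pairs with Kir6.2 (chr7:46104523-46180033, - strand). It lies 3758 bases from Kcnj11 on the same strand. Its level was 0.718, 5.39 and 0.843 RPKM in Dbx1 replicates 1, 2 and 3, and 12.04, 0.263 and 1.27 RPKM in non-Dbx1 replicates 1, 2 and 3. Dbx1 replicate 2 and non-Dbx1 replicate 1 were the high samples, the latter with 58.7% of the summed level, and the groups overlapped. The L2FC was −0.30 (limma, SE 0.960, 95% interval −2.49 to 1.90, FDR 0.986), and it turned to 0.69 without non-Dbx1 replicate 1. Counting did not use strand, so reads on any exon sequence common to Abcc8 and Gm45486 could not be assigned by it. Gm45486, an antisense gene within Abcc8, had 0, 4.31 and 0 RPKM in the Dbx1 group and 11.4, 4.85 and 0 RPKM in the non-Dbx1 group. It was thus non-zero in both samples where Abcc8 was high, and also in non-Dbx1 replicate 2, where Abcc8 was lowest.

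Abcc9 encodes SUR2, the receptor found with Kir6.1 in vascular smooth muscle and with Kir6.2 in heart (chr6:142587862-142702315, - strand). It was at 0 in 5 samples and had 0.0328 RPKM in non-Dbx1 replicate 3, from an estimated 3 reads. Like Abcc8 and Kcnj11 on chromosome 7, Abcc9 and Kcnj8 neighbour each other on chromosome 6, 16247 bases apart on the same strand. Abcc8 was higher than Abcc9 in 6 of 6 samples, with a mean difference in log2(RPKM + 1) of 1.59. It could not be lower in the 5 samples where Abcc9 was at 0, and the difference is given with no test.

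The levels of Kcnj11 and Abcc8 did not keep a fixed ratio across samples. Kcnj11 was 2.50 times Abcc8 in Dbx1 replicate 1, 2.62 times in Dbx1 replicate 3 and 2.80 times in non-Dbx1 replicate 3. In non-Dbx1 replicate 1, where both were highest, the order turned, and Abcc8 was 2.16 times Kcnj11. In Dbx1 replicate 2, Abcc8 had an estimated 505 reads and Kcnj11 had 3. The sample with 0 for Kcnj11, non-Dbx1 replicate 2, was also the one with the least Abcc8, at an estimated 28 reads.

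**Figure D2:**
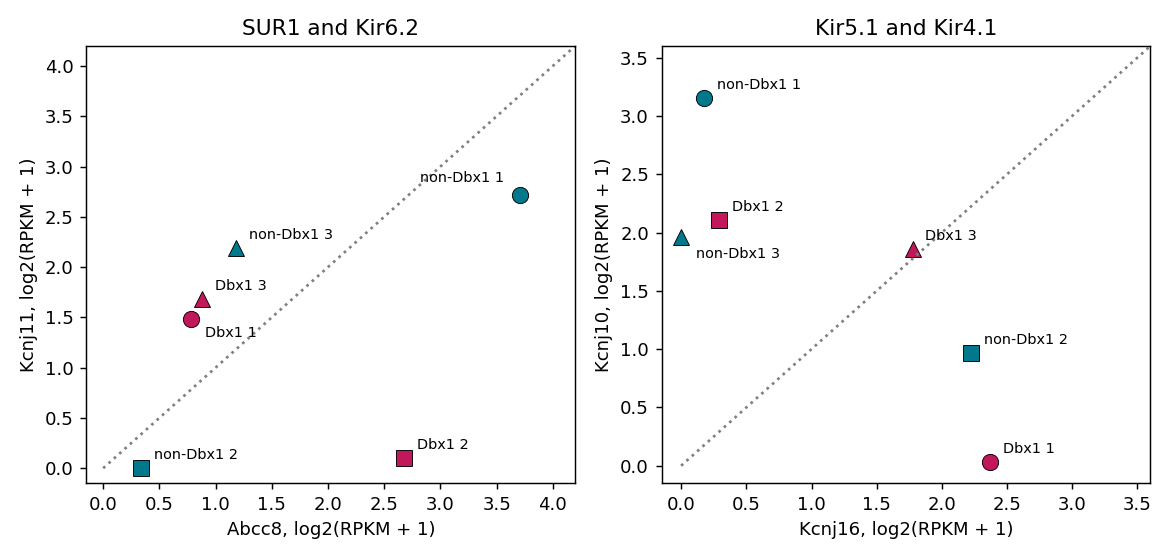
Levels of partner subunits in each sample as log2(RPKM + 1), with Kcnj11 against Abcc8 on the left and Kcnj10 against Kcnj16 on the right (red, Dbx1; blue-green, non-Dbx1; circle, square and triangle, replicates 1, 2 and 3; dotted line, equal levels). On the left 3 samples lie above the line and 3 below it, and on the right the samples with the most Kcnj10 lie near the left edge, where Kcnj16 is lowest.

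Kcnj10 encodes Kir4.1, the main inward rectifier of astrocytes and also a channel of oligodendrocytes (chr1:172341210-172374085, + strand). Its level was 0.0233, 3.32 and 2.63 RPKM in Dbx1 replicates 1, 2 and 3, and 7.90, 0.951 and 2.90 RPKM in non-Dbx1 replicates 1, 2 and 3. Dbx1 replicate 1 was the low sample, with 1 read, non-Dbx1 replicate 1 was the high one, with 276 reads, and the groups overlapped. The L2FC was −0.69 (limma, SE 0.808, 95% interval −2.54 to 1.15, FDR 0.960), and it was −0.13 without non-Dbx1 replicate 1.

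The sample with the most Kcnj10 was also the one with the most oligodendrocyte lineage RNA. In non-Dbx1 replicate 1 the oligodendrocyte transcription factor Sox10 had 46.0 RPKM and the myelin gene Mbp had 155 RPKM. Not every gene of that list peaked there. Olig1 had 62.4 RPKM in that sample and 63.9 RPKM in Dbx1 replicate 3. Mog had 0.514 RPKM in that sample and 0.905 RPKM in Dbx1 replicate 1. The sum of 8 astrocyte markers was 238 to 265 RPKM in the Dbx1 group and 257 to 282 RPKM in the non-Dbx1 group, mostly from Aldoc, at 199 to 239 RPKM. Without Aldoc the sum was 24.6, 26.0 and 38.9 RPKM in Dbx1 replicates 1, 2 and 3 and 46.2, 33.4 and 44.8 RPKM in non-Dbx1 replicates 1, 2 and 3. Dbx1 replicate 1, with 1 read of Kcnj10, had the lowest of these sums and non-Dbx1 replicate 1 the highest, but with Aldoc Dbx1 replicate 3 was lowest and non-Dbx1 replicate 3 highest. Dbx1 replicate 2, second in Kcnj10, had the least oligodendrocyte lineage RNA, at 17.5 RPKM, and a low astrocyte sum without Aldoc. Aqp4, the water channel of astrocytes, was lowest in non-Dbx1 replicate 1, at 0.0304 RPKM. The sum without Aldoc was added after seeing the data. The part of glial RNA in the level of Kcnj10 was not tested.

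**Figure D3:**
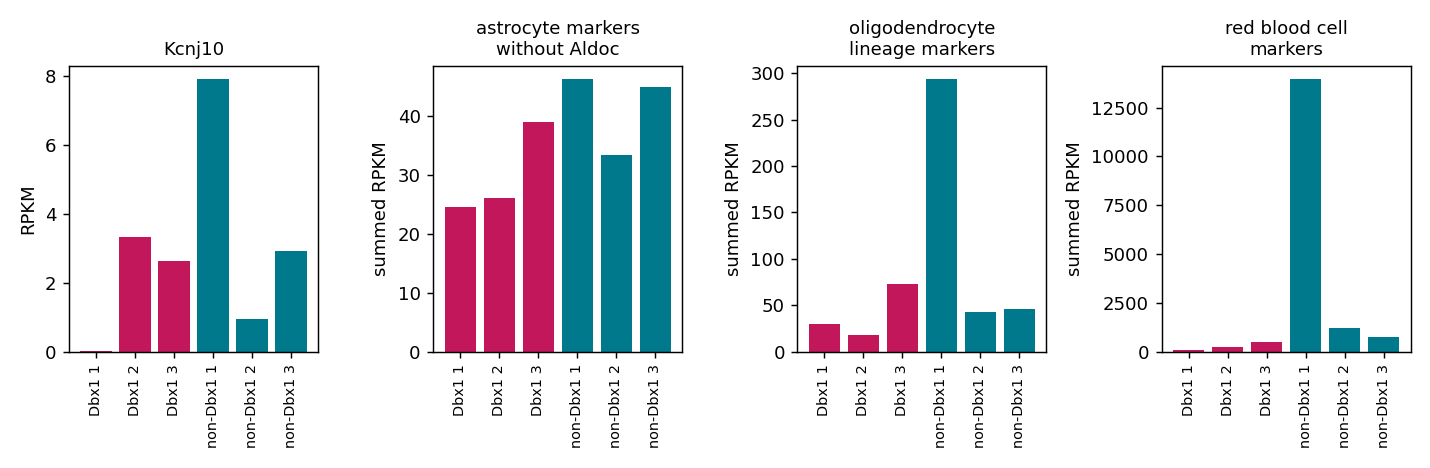
Bars give the RPKM of Kcnj10 and the summed RPKM of markers of astrocytes (without Aldoc), oligodendrocyte lineage and red blood cells in each of the 6 samples (red, Dbx1; blue-green, non-Dbx1), each panel on its own linear axis from 0. Non-Dbx1 replicate 1 has the tallest bar in all 4 panels, with 7.90 RPKM of Kcnj10 and 294 RPKM of oligodendrocyte lineage markers.

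Kcnj16 encodes Kir5.1, which forms channels with Kir4.1 rather than alone (chr11:110968033-111027968, + strand). Its level was 4.17, 0.226 and 2.42 RPKM in Dbx1 replicates 1, 2 and 3, and 0.131, 3.67 and 0 RPKM in non-Dbx1 replicates 1, 2 and 3. Dbx1 replicates 1 and 3 and non-Dbx1 replicate 2 were high, the other 3 samples were low, and the groups overlapped. The L2FC was 0.68 (limma, SE 0.783, 95% interval −1.11 to 2.47, FDR 0.960), with the higher mean in the Dbx1 samples, and it was 0.37 without non-Dbx1 replicate 1.

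Kcnj16 and its partner Kcnj10 were seldom high in the same sample. The 3 samples with the most Kcnj10, namely non-Dbx1 replicate 1, Dbx1 replicate 2 and non-Dbx1 replicate 3, were the 3 with the least Kcnj16. Kcnj10 was 60.1 times Kcnj16 in the first of these and 14.7 times in the second, and Kcnj16 was at 0 in the third. Kcnj16 was 3.86 times Kcnj10 in non-Dbx1 replicate 2, and in Dbx1 replicate 1 it had 273 reads against 1. Both were at similar levels in Dbx1 replicate 3 alone, with 2.63 RPKM of Kcnj10 and 2.42 RPKM of Kcnj16.

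Of the 9 genes, 5 were tested and 0 passed an FDR of 0.1 by limma, with FDR from 0.953 to 0.986. Across all 17614 genes tested the share that passed was 0.00568%, or 1 gene. This share depends on the test. The study's DESeq2 test on counts of the same samples, at the same FDR, called several genes, among them Gata2, Htr1a, Hif1a and Pbx3. None of the 5 had an unadjusted p under 0.05, which 5.20% of all tested genes had (2.73% higher in the Dbx1 samples and 2.48% higher in the non-Dbx1 samples), and the groups overlapped for all 5, whereas they did not for 10.6% of tested genes. A fit with voom on recovered reads also called 0 of the 4 members it could test. The median L2FC of the 5 genes was −0.55, beside 0.0089 over all tested genes, with 4 below 0 and Kcnj16 above, although by voom Abcc8 (0.15) and Kcnj11 (0.34) also lay above 0. By voom, which compares log2 reads rather than log2(RPKM + 1), the values were 3.25 for Kcnj16 and −2.02 for Kcnj10. The lowest bound of the 95% intervals was −2.54, for Kcnj10, and the highest was 2.47, for Kcnj16, whereas the interval of Kcnj12 ended at 0.79. For each gene, several-fold differences in RPKM + 1 in at least 1 direction were thus not excluded by these 3 samples a group.

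**Figure D4:**
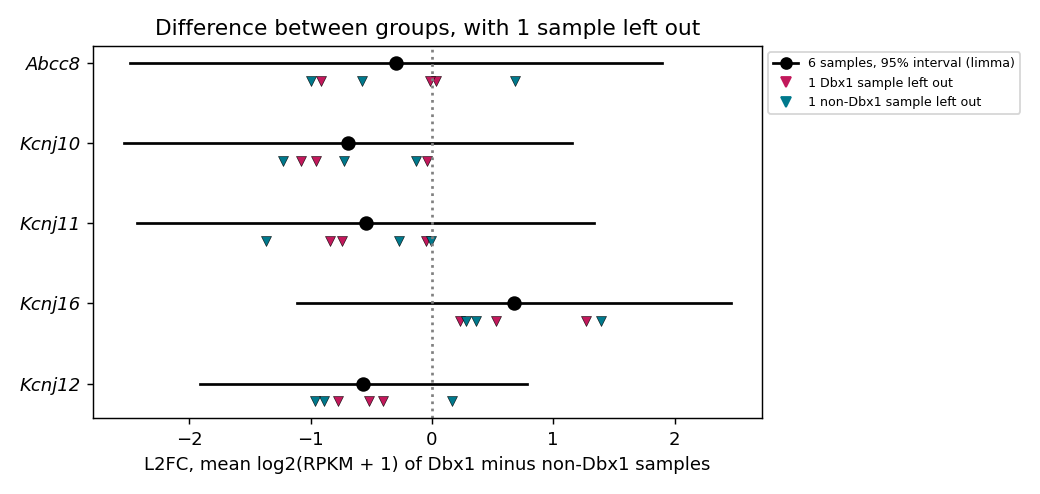
Difference in mean log2(RPKM + 1), Dbx1 minus non-Dbx1 (L2FC), of the 5 tested genes, with lines for limma's 95% interval over all 6 samples and triangles for the fits that leave out 1 Dbx1 (red) or 1 non-Dbx1 (blue-green) sample. All 5 intervals include 0, and Abcc8 moves from −0.30 to 0.69 when non-Dbx1 replicate 1 is left out.

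The SD of log2(RPKM + 1) over the 6 samples of both groups was 1.31 for Abcc8, 1.10 for Kcnj11 and for Kcnj16, 1.07 for Kcnj10 and 0.889 for Kcnj12. Among the 7875 tested genes with a mean of 0.5 to 5 RPKM, the median SD was 0.733 and the quartiles were 0.538 and 0.969. By this SD Abcc8 varied more than 93.3% of genes of that range, Kcnj11 more than 84.2%, Kcnj16 more than 83.9%, Kcnj10 more than 81.9% and Kcnj12 more than 67.6%. The order was another by the share of the summed level held by the highest sample. By that share Kcnj12 exceeded 95.9% of these genes, Abcc8 85.6%, Kcnj10 66.2%, Kcnj11 61.8% and Kcnj16 55.3%.

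By mean RPKM the order was Abcc8 (3.42), Kcnj10 (2.95), Kcnj11 (2.20), Kcnj16 (1.77), Kcnj12 (0.865), Kcnj2 (0.0364), Kcnj4 (0.0120), Abcc9 (0.0055) and Kcnj8 (0). Among the first 5 genes no neighbours in this order differed beyond their spread (exact two-sided sign-change permutation tests over 6 samples). The first place of Abcc8 held for the mean RPKM only. By median RPKM, Kcnj10 (2.77), Kcnj11 (2.00) and Kcnj16 (1.32) stood above Abcc8 (1.06). In log2(RPKM + 1) the mean difference of Abcc8 against Kcnj10 was −0.087, with Abcc8 higher in 3 samples and lower in 3. From Kcnj2 down the neighbours were both at 0 in 4 or 5 of the 6 samples, so that their order could not be tested. Kcnj12 was higher than Kcnj2 in 5 samples and equal at 0 in the other, with a mean difference in log2(RPKM + 1) of 0.56. Kcnj12 could not be lower in the 4 samples where Kcnj2 was at 0, and the difference is given with no test. The order also depended on the exon length that RPKM divides by. For Kcnj10, Kcnj11 and Kcnj16 the deposited values gave whole reads with the sum of all annotated exons, in which overlapping exons of different transcripts count in full. For Abcc8 and Kcnj12 that sum did not give whole reads. The smallest length that did, among those of at least 0.9 of the merged exon length, was assumed, and their recalculated means rest on it. With overlapping exons merged, a recalculation added after seeing the data, the means were 5.26 for Abcc8, 3.71 for Kcnj16, 3.27 for Kcnj11, 2.95 for Kcnj10 and 1.58 for Kcnj12. Abcc8 stayed first, while Kcnj16 moved from rank 4 to rank 2 and Kcnj10 from rank 2 to rank 4. For the same gene the length does not change the ratio of RPKM between samples. It does enter log2(RPKM + 1), and so the L2FC and the SD, because the added 1 is fixed. The L2FC was not tested again with merged exons.

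The pattern of Abcc8 over the 6 samples was most like those of Strada, an activator of the kinase LKB1 (Pearson r of log2(RPKM + 1) 0.996), Clpp, a mitochondrial protease subunit (r = 0.992), and Utp15, a factor of ribosome production (r = 0.991). These were the first 3 of 7055 genes with a mean of at least 5 RPKM, of which 48 had r above 0.9. The likeness is a description over 6 points and rests on Dbx1 replicate 2 and non-Dbx1 replicate 1. Strada, for example, had 8.17 and 9.36 RPKM in those samples and 4.75 to 5.71 RPKM in the other 4.

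Other pores of the Kir family were sparse as well. Of 8 genes, 3 were non-zero in at least 3 samples, and by limma 0 of these passed an FDR of 0.1 or an unadjusted p of 0.05, by voom also 0. Their median L2FC was −0.22. Kcnj9, a subunit of G protein-gated Kir3 channels and a neighbour of Kcnj10 at a distance of 11891 bases, had the highest mean, 1.35 RPKM, and an L2FC of 0.66, and Kcnj3, another Kir3 subunit, had the lowest L2FC, −0.48. Kcnj1, Kcnj5 and Kcnj15, named after their values were seen, were at 0 in every sample. Kcnj13, also named after its values were seen, encodes Kir7.1 and had 5.05 RPKM in non-Dbx1 replicate 1, 0.781 RPKM in Dbx1 replicate 2 and 0 in the other samples.

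Transcripts for proteins that anchor Kir channels, make the phosphoinositides that keep them open, or bind SUR1 were detected in most samples. All 18 genes of this list were tested, and 16 were non-zero in all samples. By limma 0 passed an FDR of 0.1, and 1 had an unadjusted p under 0.05, beside 5.20% of all tested genes, and by voom 0 of 14 passed either. The median L2FC was 0.17, with 12 genes above 0 and 6 below, and the groups did not overlap for 3 of the 18, beside 10.6% of all tested genes. Lin7c, a scaffold of the complex that anchors Kir2 channels, had the highest mean, 43.7 RPKM. Rapgef4, the cAMP sensor Epac2 that associates with SUR1, had the highest L2FC, 1.08 (limma, SE 0.560, FDR 0.919), with 6.50, 7.01 and 11.7 RPKM in the Dbx1 group and 1.63, 2.52 and 7.63 RPKM in the non-Dbx1 group. Dlg4, which encodes the scaffold PSD-95, had the lowest L2FC, −1.04 (limma, SE 0.695, FDR 0.936). Its paralogue Dlg3 did not overlap between the groups, with 4.01 to 5.62 RPKM in the Dbx1 group and 6.12 to 8.02 RPKM in the non-Dbx1 group (limma, FDR 0.940). Rapgef3, the related sensor Epac1, had 1.52, 0.0483 and 1.51 RPKM in the Dbx1 group against 0, 0.0071 and 0.0064 RPKM in the non-Dbx1 group, and its L2FC of 0.90 did not pass (limma, unadjusted p = 0.0382, FDR 0.912).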

How the data were processed

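RNA-seq was analysed for 6 samples of 15 neurons. Per the submitters' processing notes and the study's methods, the authors aligned reads with TopHat2 to mm10, used SAMtools and counted reads on genes with HTSeq without using strand. For each sample the authors deposited RPKM under 49568 gene names, not scaled between samples. The authors' test was DESeq2 on counts, which were not used here. The annotation release is not given in the sources used here.

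Reads on genes (6464675 to 9432958 per sample) were recovered from the smallest RPKM steps. With GENCODE vM21 summed exon lengths, 51.4% of non-zero genes gave whole reads within 0.01. Reads of Abcc8, Kcnj12 and Abcc9 are estimates. They are the fewest that give the deposited values at a length of at least 0.9 of the merged exon length. Names matched vM21 for 47114 genes, which gave positions on GRCm38.

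Groups followed the labels. log2(RPKM + 1) was tested with limma 3.58.1 (eBayes with trend, R 4.3.3) over the 17614 genes non-zero in 3 or more samples. Tests were two-sided, p-values were adjusted by Benjamini-Hochberg, and the threshold was an FDR of 0.1. The procedure was tested on simulated data. Levels of 10 pairs of genes were compared by exact sign changes over the samples. No p-value is given for pairs in which 1 gene was at 0 in most samples. Python 3.11.15 served for the remaining values, through scipy 1.17.1, pandas 2.3.3 and numpy 2.4.6, and matplotlib 3.10.9 drew the plots. All 9 members are reported, and other lists by counts, median and at most 5 genes (highest mean, highest and lowest L2FC, groups that do not overlap). Members, lists and tests were chosen with earlier results of these data known. Alternatives were another pseudocount, other filters, size factors, quantile normalization, limma without trend, a replicate block, voom on recovered reads, ratios of means and each sample left out. The merged exon length and the astrocyte sum without Aldoc were added after seeing the data. Some marker and sequence items are not reported here.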

Additional observations from a re-analysis of the deposited data

How the results depend on the processing

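At an FDR of 0.1 the number of genes that differed was 1 by limma, 0 with a pseudocount of 0.1, 0 with genes non-zero in at least 1 sample, 0 by voom on recovered reads, 3 without the trend, and 0 to 1 with single samples left out. With the replicate number as a block it was 0. The numbers do not pair the samples, which came from different mice, and deviations of same-numbered samples correlated at −0.107, 0.0248 and −0.0522. No member passed under any setting (lowest FDR 0.813). The L2FC turned for Abcc8 (0.15 by voom, −0.997 to 0.69 with samples left out), Kcnj11 (0.34 by voom) and Kcnj12 (−0.97 to 0.16 with samples left out), and for Kcnj12 the log2 ratio of means was −2.33. With samples left out the L2FC was −1.22 to −0.042 for Kcnj10, −1.36 to −0.0040 for Kcnj11 and 0.23 to 1.39 for Kcnj16. For Abcc8, Kcnj10, Kcnj11 and Kcnj16 the value farthest from 0 in these ranges came without non-Dbx1 replicate 2. The causes were not tested beyond the samples named in the report. Kcnj12 could not be fitted with RPKM of at least 1 in 3 samples or by voom. Differences in order turned for Abcc8 against Kcnj10 (0.29 with merged exons, −0.25 to 0.091 with samples left out), Kcnj10 against Kcnj11 (−0.019 to 0.67), Kcnj11 against Kcnj16 (−0.24 to 0.71), Kcnj2 against Kcnj4 (−0.0041 to 0.043) and Kcnj4 against Abcc9 (−0.0093 to 0.020). Depth limits Kcnj2, Kcnj4, Abcc9 and Kcnj8, where single reads decide the value.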

Other observations

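Genes of cell energy sensing, whose products set or read the ATP that K-ATP channels respond to, were mostly detected in every sample. Of 21 genes, 18 were tested and 14 were non-zero in all samples, and Prkag3 was at 0 throughout. By limma 0 passed an FDR of 0.1 or an unadjusted p of 0.05, and by voom 0 of 16 passed the FDR and 1 the unadjusted p. The median L2FC was 0.05, with 11 genes above 0 and 7 below, and the groups did not overlap for 4 of the 18, beside 10.6% of all tested genes. Ckb, the brain creatine kinase that buffers ATP, had the highest mean, 485 RPKM. Slc2a3, the neuronal glucose transporter GLUT3, had the highest L2FC, 0.85 (limma, SE 0.387, FDR 0.912), with 14.1, 23.5 and 14.9 RPKM in Dbx1 replicates 1, 2 and 3 against 12.5, 5.48 and 10.4 RPKM in non-Dbx1 replicates 1, 2 and 3. Subunits of the AMP-activated kinase, which senses falling ATP, lay on both sides of 0, with an L2FC of 0.60 for Prkag2, 0.55 for Prkaa2 and −0.82 for Prkaa1 (limma, FDR 0.924, 0.952 and 0.949).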
